A study of Mus musculus with 16 samples.

Results

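The lipid-associated macrophage genes are 7 genes that mark macrophages loaded with lipid in obese fat and fatty liver: Trem2, Gpnmb, Cd9, Cd63, Spp1, Lgals3 and Itgax. They were taken as all probes annotated to these symbols on an Illumina MouseRef-8 bead array, and 6 of the 7 had a probe, 11 probes in all, on an array of 25697 probes and 18312 genes and unnamed probes. No probe used here is annotated to Spp1, which encodes the secreted protein osteopontin, so Spp1 was not analysed here. RNA came from liver and from epididymal white fat (eWAT, for epididymal white adipose tissue). Wild-type mice were compared with FGF1 null mice, which lack fibroblast growth factor 1, a secreted growth factor; all were 24 weeks old and had spent 16 weeks on a high-fat diet (HFD) or on normal chow. Each of the 8 groups, 1 for each tissue, genotype and diet, is 1 RNA sample on 2 arrays, technical replicates by the labels, 16 arrays in all, and the labels do not say how many mice gave an RNA sample or whether eWAT and liver came from the same mice. The SD and SE of a group's 2 arrays are therefore measurement error of 1 RNA sample, and no comparison of diets or genotypes within a tissue has a test.

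Macrophages take up lipid from dying or overfilled cells, and those that do so in fat and liver switch on a shared programme of lysosomal, lipid-handling and surface genes. The receptor TREM2 binds lipids and signals through the adaptor TYROBP (DAP12); in mice it is needed for this programme. GPNMB is a lysosomal and membrane glycoprotein, CD9 and CD63 are tetraspanins (CD63 of late endosomes and lysosomes), galectin-3 (Lgals3) is a secreted lectin that binds galactosides, and CD11c, encoded by Itgax, is an integrin subunit of dendritic cells and of macrophages in obese fat. Cd9, Cd63 and Lgals3 are also made by many other cells. In bulk tissue, fewer cells of a type and less RNA per cell cannot be told apart.

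Intensities were background-corrected and quantile normalized over all 16 arrays and are given on the log2 scale, so that 1 unit is a 2-fold difference, and levels are compared between samples of a gene and not between genes. A probe was called detected where its detection p was under 0.05. A difference was counted as past 2-fold where it was at least 1 on the log2 scale and both arrays of one sample lay above both arrays of the other. An eWAT array detected 13570 to 15399 probes, and a liver array 10626 to 11650. The Fgf1 probe that stands for the gene read 8.92 in FGF1 null liver on HFD and 10.22 in wild-type liver on HFD, 9.95 and 10.78 in the chow livers, and 8.81 and 10.38 in the HFD eWAT samples. In chow eWAT it read 9.55 in the sample labelled FGF1 null and 8.85 in wild-type, against the label. The gene's dimmer probe, detected on every array, was lower in FGF1 null in 1 of the 4 pairs: it read 7.80 in FGF1 null and 8.04 in wild-type HFD liver, 8.98 and 8.87 in the chow livers, 7.13 and 6.88 in HFD eWAT, and 6.72 and 5.68 in chow eWAT. A probe outside the deleted part of the gene would check nothing, and where either of these Fgf1 probes lies relative to it is not given in the sources used here.

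The start regions of Trem2, Gpnmb and Lgals3 are shown because these 3 members differed past 2-fold in all 4 comparisons within eWAT. The sequences are from RefSeq (GRCm38.p6), 280 bases each, from 250 before the start to 30 after it, 5′ to 3′ on the gene's strand: Trem2 at chr17:48346151-48346430, Gpnmb at chr6:49036268-49036547 and Lgals3 at chr14:47373610-47373889, all on the plus strand. Capitals mark TGANTCA, the site of AP-1 factors, and GAGGAAG, a core of sites of the macrophage factor PU.1, on either strand.
Trem2: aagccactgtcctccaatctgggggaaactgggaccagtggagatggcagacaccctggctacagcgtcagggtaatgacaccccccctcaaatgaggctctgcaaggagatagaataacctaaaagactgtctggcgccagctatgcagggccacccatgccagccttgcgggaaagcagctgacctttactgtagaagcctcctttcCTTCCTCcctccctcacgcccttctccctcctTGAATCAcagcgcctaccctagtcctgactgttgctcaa
Gpnmb: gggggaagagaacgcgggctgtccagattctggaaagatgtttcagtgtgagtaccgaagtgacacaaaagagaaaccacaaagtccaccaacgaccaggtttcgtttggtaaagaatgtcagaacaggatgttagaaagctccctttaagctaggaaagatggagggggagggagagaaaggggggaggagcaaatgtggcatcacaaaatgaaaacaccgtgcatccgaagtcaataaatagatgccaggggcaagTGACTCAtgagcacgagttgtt
Lgals3: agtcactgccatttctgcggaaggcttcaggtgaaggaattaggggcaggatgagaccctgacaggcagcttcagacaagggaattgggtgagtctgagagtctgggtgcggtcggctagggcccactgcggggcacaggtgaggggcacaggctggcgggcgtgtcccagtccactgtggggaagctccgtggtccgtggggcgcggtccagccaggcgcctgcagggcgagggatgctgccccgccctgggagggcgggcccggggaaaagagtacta
The Trem2 window held GAGGAAG on the other strand, where the printed strand reads CTTCCTC, from position -41, and also TGAATCA from -9 relative to the start, the Gpnmb window held TGACTCA from 9, and the Lgals3 window held none of the letters searched. Among the other members, Itgax held TGAGTCA from -56, Cd63 held CTTCCTC from -60, Spp1 held GAGGAAG from -113 in 1 of its 2 windows, and Cd9 held none. CACGTG (the E-box of MITF and TFE factors, which are known to drive Gpnmb) and TCATGTG (the M-box) were in none of the 8 windows of the 7 members. Of 32851 promoters of the same length, 7.46% held TGANTCA, 12.2% GAGGAAG, 6.79% CACGTG and 3.6% TCATGTG on either strand. None of the motifs overlapped in the windows shown, and a match is a description of letters, not of a bound site.

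The order of the 8 samples was led by the eWAT chow sample labelled FGF1 null for all 6 measured members. Trem2, the lipid receptor, read 6.69 and 6.36 on the arrays of wild-type chow eWAT, 9.63 and 9.95 in wild-type HFD eWAT, 12.22 and 12.08 in the eWAT chow sample labelled FGF1 null, and 7.99 and 8.15 in FGF1 null HFD eWAT. In liver, Trem2 read 6.28 and 5.27 in wild-type chow, 6.36 and 6.76 in wild-type HFD, 5.97 and 5.14 in FGF1 null chow, and 8.62 and 8.53 in FGF1 null HFD. The 4 eWAT samples stood apart from one another, FGF1 null HFD liver lay above the FGF1 null HFD eWAT sample, and wild-type HFD liver overlapped with wild-type chow eWAT. Each chow liver detected Trem2 on 1 of 2 arrays, so those levels are near background.

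Gpnmb, the lysosomal glycoprotein, read 9.88 and 9.76 in wild-type chow eWAT, 12.63 and 12.68 in wild-type HFD eWAT, 14.38 and 14.58 in the eWAT chow sample labelled FGF1 null, and 11.42 and 11.24 in FGF1 null HFD eWAT. In liver it read 10.06 and 10.28 in FGF1 null HFD, 6.10 and 5.06 in wild-type HFD, 5.99 and 4.99 in FGF1 null chow, and 5.01 and 5.55 in wild-type chow. FGF1 null HFD liver was thus above wild-type chow eWAT, while the other 3 livers overlapped one another at the edge of detection, with 1, 1 and 0 of 2 arrays detected. The gene's other 3 probes were dimmer, and each was highest in the eWAT chow sample labelled FGF1 null, at 10.72, 8.99 and 8.36, and second in wild-type HFD eWAT, at 8.01, 6.45 and 6.35. In FGF1 null HFD liver these 3 probes were detected on 0, 0 and 1 of 2 arrays, so the liver level of Gpnmb rests on the brightest probe.

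Lgals3 read 12.83 and 12.95 in wild-type chow eWAT, 14.72 and 14.45 in wild-type HFD eWAT, 15.26 and 15.24 in the eWAT chow sample labelled FGF1 null, and 13.25 and 13.44 in FGF1 null HFD eWAT. In liver it read 9.07 and 8.68 in wild-type chow, 9.47 and 9.52 in wild-type HFD, 8.82 and 9.07 in FGF1 null chow, and 11.21 and 11.20 in FGF1 null HFD. All eWAT samples were above all livers for Lgals3, and among livers only the chow pair overlapped.

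The tetraspanins were steadier across eWAT. Cd63 read between 12.80 and 13.06 on the arrays of wild-type chow, wild-type HFD and FGF1 null HFD eWAT and 13.85 and 13.73 in the chow sample labelled FGF1 null. In liver it read between 8.42 and 8.67 in 3 samples and 10.36 and 10.29 in FGF1 null HFD. Cd9 read between 10.40 and 10.63 in the same 3 eWAT samples, which overlapped one another, and 11.79 and 11.84 in the chow sample labelled FGF1 null; the livers read from 8.65 to 9.43, highest in FGF1 null HFD. Both tetraspanins therefore differed chiefly in 1 eWAT sample, and Cd63 also in 1 liver. The other 2 Cd63 probes were highest in the same eWAT sample, at 10.88 and 10.16, and higher in FGF1 null HFD than in the other livers, at 8.30 and 7.56.

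Itgax was detected in 1 sample of 8: it read 6.37 and 5.87 in the eWAT chow sample labelled FGF1 null and from 4.41 to 5.54 on the other 14 arrays, where no array detected it. It passed the filter through that sample alone and so had to differ there, and it was not tested in liver. The plot of levels by array shows the 6 measured members in the 8 samples.

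**Figure D1:**
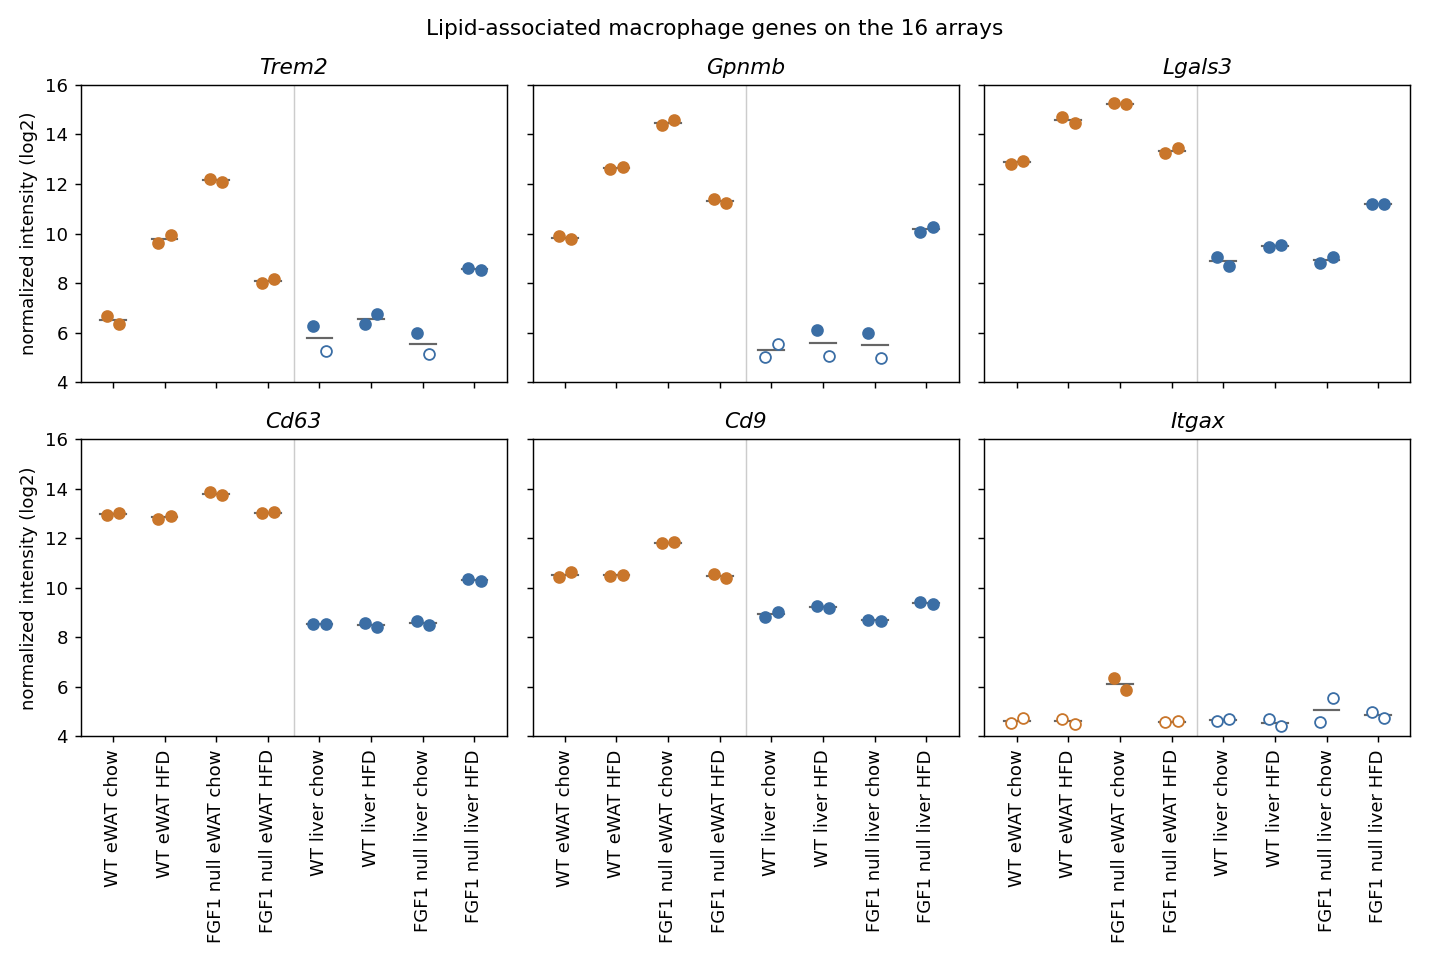
Normalized intensity (log2) of each measured member on the 16 arrays; orange points are eWAT, blue points liver, open points arrays without detection, and short lines the mean of a sample's 2 arrays. The eWAT chow sample labelled FGF1 null is highest in all 6 panels (Trem2 12.15, Gpnmb 14.48), and FGF1 null HFD is the highest liver for 5 of the 6, with Itgax undetected in liver.

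HFD was set against chow in wild-type mice to ask how these genes stand in diet-induced obesity. In eWAT, Trem2 was 9.63-fold higher on HFD (log2 difference 3.27 ± 0.32, SE of the arrays), Gpnmb 7.11-fold (2.83 ± 0.35) and Lgals3 3.24-fold (1.70 ± 0.15). Cd9 differed by -0.03 ± 0.11, Cd63 by -0.15 ± 0.10 and Itgax, undetected in both samples, by -0.02 ± 0.27. So 3 of 6 measured members were past 2-fold higher and none lower, where 15.5% of the 11924 genes and unnamed probes tested in eWAT were past 2-fold higher. The median over the 6 was 0.84, beside 0.11 over all tested. In the sample labelled wild-type chow Fgf1 read 8.85, near FGF1 null HFD eWAT (8.81) and below the chow sample labelled FGF1 null (9.55), so the doubt about the chow labels touches this comparison too.

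Of 23 measured genes of the lipid-associated macrophage programme, a list of lipid-handling, lysosomal and matrix genes, 12 were past 2-fold higher on HFD in wild-type eWAT and 0 lower, with a median of 1.24; the largest were Fabp5, a fatty acid carrier (3.47 ± 0.20, detected on 1 of 2 chow arrays), Mmp12, the macrophage elastase (3.47 ± 0.14), and Plin2, a lipid droplet coat protein (2.67 ± 0.23). Of 8 TREM2 signalling genes 2 were higher, Tyrobp (1.95 ± 0.26) and the linker Lat2 (1.90 ± 0.40). Of 5 osteopontin receptors 3 were higher, led by Cd44 (2.71 ± 0.11). Of 3 beta2 integrins, the family of Itgax, Itgad (1.12 ± 0.16) and the shared subunit Itgb2 (1.03 ± 0.26) were higher.

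Macrophage markers moved in the same direction. Among 12 pan-macrophage markers, 8 were past 2-fold higher and 1 lower (median 1.56); Adgre1, which encodes F4/80, was higher by 2.68 ± 0.21, Cd84 by 2.44 ± 0.12, and Aif1 was lower (-2.34 ± 0.12). All 9 measured markers of resident-type adipose macrophages were higher (median 1.66), led by the folate receptor Folr2 (2.77 ± 0.18). Trem2 and Gpnmb differed by 1.71 and 1.27 more on the log2 scale than the pan-macrophage median, Lgals3 by 0.14 more, and Cd63 and Cd9 by 1.71 and 1.59 less. The summed pan-macrophage intensity was 9383 to 9824 in wild-type chow and 24287 to 26486 in wild-type HFD eWAT, with no marker undetected in either.

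The same pair of samples differed in genes of neighbouring organs. All 8 measured genes of epididymis, testis and sperm were lower on HFD, their summed intensity being 169810 to 176915 in wild-type chow and 1071 to 1085 in wild-type HFD, with Defb42 and Wfdc13 undetected there. Of 8 hepatocyte genes 7 were higher, at a summed 34292 to 34735 on chow and 141311 to 150130 on HFD. The other, Cyp2e1, named after its value was seen, read 15.03 in both samples and made up most of the chow sum. The sums therefore understate the other 7 genes, whose log2 differences ran from 5.645 (Apoc3) to 7.543 (Ttr). All 9 acinar pancreas genes were higher, at 250 to 256 on chow, with 6 of 9 undetected, and 64411 to 67247 on HFD. Clec4f, a marker of the Kupffer cells of liver, was undetected in wild-type chow eWAT and read 7.21 in wild-type HFD eWAT, against 10.46 in wild-type HFD liver. Of 8 adipocyte genes 7 were higher on HFD, led by Lep (2.91 ± 0.27), Plin1 (2.71 ± 0.12) and Slc2a4 (2.59 ± 0.37), at a summed 35729 to 36108 on chow, with Retn undetected, and 112165 to 118396 on HFD. Of 6 mast cell genes 4 were higher (median 1.29). In wild-type HFD liver Trem2 read 6.56, Gpnmb 5.58 and Lgals3 9.50, each below its level in wild-type HFD eWAT. What part the other tissues and cell types had in the members' differences was not tested.

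In eWAT of mice labelled FGF1 null, HFD was set against chow to ask whether the diet difference holds without FGF1. Here the 2 samples stood the other way round. Fgf1 read 9.55 in this chow sample and 8.85 in wild-type chow eWAT, against the label. The doubt about the chow labels thus touches this comparison too, and its direction cannot be read as a diet difference without FGF1. Trem2 was 16.9-fold lower on HFD (-4.08 ± 0.32), Gpnmb 8.89-fold (-3.15 ± 0.35), Lgals3 3.74-fold (-1.91 ± 0.15) and Cd9 2.53-fold (-1.34 ± 0.11). Itgax was at least 1.98-fold lower (-0.59 on the log2 scale without background correction), its bound against the lowest detected signal of the HFD arrays, and Cd63 differed by -0.75 ± 0.10. Of the 6 members, 5 were past 2-fold lower, where 5.45% of all tested were; for Itgax the detection filter fixed this. The members' median was -1.71 and that of all tested -0.03.

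In the lipid-associated programme 13 of 23 genes were past 2-fold lower and 0 higher (median -1.09), led by Mmp12 (-4.17 ± 0.14), the collagen-cleaving cathepsin Ctsk (-2.62 ± 0.34) and Il1rn, the interleukin-1 receptor antagonist (-2.36 ± 0.18). Of 8 TREM2 signalling genes 4 were lower, among them Lat2 (-2.77 ± 0.40) and Tyrobp (-2.58 ± 0.26). Cd44 differed by -3.09 ± 0.11, and Itgad was at least 9.55-fold lower. Of 12 pan-macrophage markers 7 were lower and 0 higher (median -1.44), with Cd84 at -2.94 ± 0.12 and Adgre1 at -2.16 ± 0.21. Resident-type markers were mixed, with Cd163 (2.21 ± 0.17) and Lyve1 (1.73 ± 0.13) higher and Folr2 lower (-1.30 ± 0.18). Trem2 and Gpnmb were 2.64 and 1.72 further down than the pan-macrophage median, and Cd63 and Cd9 were 0.68 and 0.10 less far down. All 9 acinar pancreas genes were higher on HFD, at a summed 380080 to 390139 against 253 to 255 on chow. The epididymis, testis and sperm sum was 25484 to 27383 on HFD and 38494 to 39803 on chow. Of the hepatocyte genes, Cyp2e1 (4.15 ± 0.13) and Apoa1 (1.98 ± 0.13) were past 2-fold higher and Serpina1d lower (-3.32 ± 0.13). Named after their values were seen, Apoc3, Ttr and Ambp were also past 2-fold higher, and Hpx and Ahsg were not past 2-fold. Of the adipocyte genes, Lep was past 2-fold lower on HFD (-1.56 ± 0.27) and Lipe higher (1.04 ± 0.28), and the others measured were not past 2-fold. The part of these tissues was not tested.

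Set against wild-type on the same diet, the eWAT chow sample labelled FGF1 null was higher for 5 of 6 members, where 13% of all tested were past 2-fold higher. For Itgax, 1 of the 5, the detection filter fixed this. This comparison shares its FGF1 null sample with the last one and its wild-type sample with the diet comparison in wild-type mice. Trem2 was 49.4-fold higher (5.63 ± 0.32), Gpnmb 25.2-fold (4.66 ± 0.35), Lgals3 5.13-fold (2.36 ± 0.15), Cd9 2.43-fold (1.28 ± 0.11) and Itgax at least 2.29-fold. Without background correction the Itgax difference was 0.58, short of 2-fold. Cd63 was higher by 0.81 ± 0.10, also short of 2-fold but 1.23 with median scaling, and the median of the 6 was 1.92 beside 0.06 over all tested.

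In that comparison 17 of 23 programme genes were higher and 0 lower (median 2.00), led by Mmp12 (6.50 ± 0.14), Ctsk (3.97 ± 0.34) and the glucan receptor Clec7a (3.59 ± 0.26). Of 8 TREM2 signalling genes 6 were higher, led by Tyrobp (3.71 ± 0.26), and all 3 beta2 integrins were higher, Itgb2 by 2.10 ± 0.26. Of the 2 measured MITF and TFE factors, Tfe3 was past 2-fold (1.03 ± 0.14). Of 5 other leukocyte tetraspanins 2 were past 2-fold higher, Cd53 (3.66 ± 0.21) and Cd37 (2.53 ± 0.24), while Cd151 differed by 0.69 ± 0.14, Cd81 by -0.08 ± 0.10 and Cd82 by -0.64 ± 0.14. Of 12 pan-macrophage markers 9 were higher and 1 lower (median 2.59), led by Cd84 (4.76 ± 0.12), and the summed level in the sample labelled FGF1 null was 60762 to 63976. Of 6 mast cell genes 5 were higher, led by Cpa3 (3.07 ± 0.43), and all 8 genes of epididymis, testis and sperm were lower, with a median of -4.00. Fgf1 goes against the label of this sample, so no direction here can be read as one of genotype.

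On HFD, FGF1 null eWAT was lower than wild-type for Trem2 (3.29-fold, -1.72 ± 0.32), Gpnmb (2.51-fold, -1.33 ± 0.35) and Lgals3 (2.37-fold, -1.24 ± 0.15). Cd9 differed by -0.03 ± 0.11, Cd63 by 0.20 ± 0.10, and Itgax was undetected in both. These 3 of 6 members stood beside 5.51% of all tested past 2-fold lower, and medians of -0.64 and 0.01. The pan-macrophage markers differed little in the same samples, with 0 of 12 past 2-fold in either direction and a median of -0.18, and their sum was 20978 to 22349 in FGF1 null and 24287 to 26486 in wild-type. Of 23 programme genes 4 were lower, among them Fabp5 (-2.20 ± 0.20), Il1rn (-1.55 ± 0.18, detected on 1 of 2 FGF1 null arrays) and Mmp12 (-1.13 ± 0.14), and Cd44 differed by -1.24 ± 0.11. Of 9 measured markers of resident-type macrophages, only Cd163 (1.26 ± 0.17) and Lyve1 (1.30 ± 0.13) were past 2-fold higher. The others ran from -0.36 (Cbr2) to 0.09 (Timd4). Of 8 hepatocyte genes 7 were lower (median -6.24) and all 9 acinar genes higher (median 3.18). Of 8 genes of epididymis, testis and sperm 4 were higher (median 3.73), at a summed 25484 to 27383 in FGF1 null and 1071 to 1085 in wild-type. The part of these tissues was not tested.

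The diet differences of the 2 genotypes in eWAT were at least 2-fold apart for 5 of 6 members, where 37.9% of all tested were; for Itgax, 1 of the 5, the detection filter fixed the difference in the FGF1 null pair. Trem2, Gpnmb and Lgals3 were past 2-fold higher with HFD in wild-type and past 2-fold lower in FGF1 null, a pattern held by 330 of 11924 tested, or 2.77%. Their differences of differences were -7.35, -5.98 and -3.60, and Cd9 (-1.31) and Itgax (-1.49) were apart with a difference in the FGF1 null pair alone. Both chow eWAT samples enter these values and Fgf1 goes against their labels, so no direction here can be read as one of genotype.

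**Figure D2:**
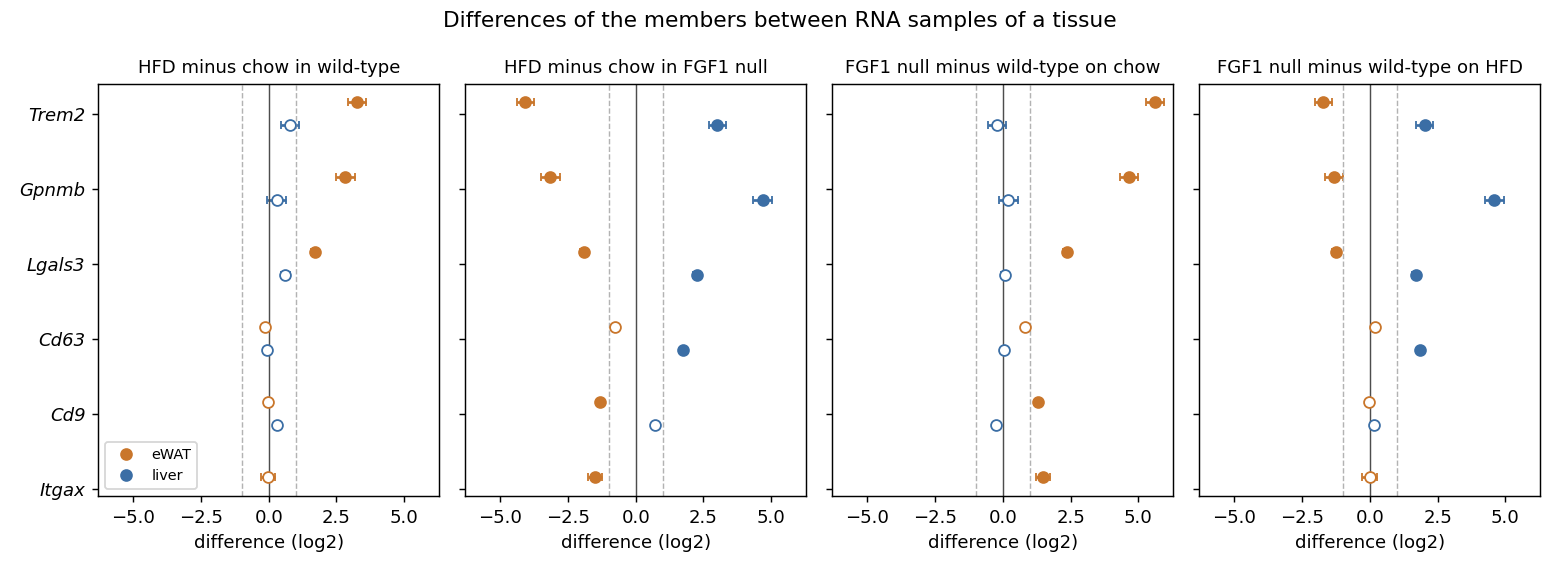
Log2 differences of the members between 2 RNA samples of a tissue, with bars of 1 SE from the arrays; filled points are past 2-fold with arrays not overlapping, dashed lines mark 2-fold, and Itgax is shown for eWAT only. In eWAT Trem2 stands at 3.27 with diet in wild-type and -4.08 in FGF1 null, and in liver at 0.78 and 3.02.

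In wild-type liver none of the 5 members tested was past 2-fold with HFD, where 8.22% of the 8870 tested in liver were past 2-fold in either direction. Trem2 differed by 0.78 ± 0.32, Lgals3 by 0.62 ± 0.15, Cd9 by 0.30 ± 0.11, Gpnmb by 0.30 ± 0.35 and Cd63 by -0.05 ± 0.10. Of 22 programme genes 3 were higher and 2 lower; Fabp5 was at least 2.70-fold higher. The pan-macrophage list held 2 of 12 that were higher, C1qb (1.04 ± 0.13), a complement subunit made by macrophages, and Adgre1 (1.02 ± 0.21).

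FGF1 null liver differed from this. On HFD against chow, 4 of 5 members were past 2-fold higher, where 7.61% of all tested were. Gpnmb, 1 of the 4, passed the filter in liver through FGF1 null HFD liver alone and so had to be high there. Gpnmb was higher by 4.68 ± 0.35, Trem2 by 3.02 ± 0.32, Lgals3 by 2.26 ± 0.15 and Cd63 by 1.74 ± 0.10. Cd9 was higher by 0.71 ± 0.11, short of 2-fold. Gpnmb and Trem2 were detected on 1 of 2 chow arrays, so their differences rest on a level near background. The members' median was 2.26 and that of all tested 0.02.

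In the same pair, 7 of 22 programme genes were past 2-fold higher and 1 lower (median 0.61). Ms4a7, a membrane protein of macrophages, was at least 3.99-fold higher, Clec7a at least 4.83-fold, and Lgals1, encoding galectin-1, was higher by 3.02 ± 0.18. The cathepsin Ctsl was the gene past 2-fold lower. Tyrobp, undetected on chow, was at least 5.02-fold higher, and of 7 TREM2 signalling genes 3 were higher, with the signalling phospholipase Plcg2 at 1.42 ± 0.14. Of 12 pan-macrophage markers 10 were higher and 0 lower (median 1.5), with the chemokine receptor Cx3cr1 at least 2.41-fold and Fcer1g at 1.93 ± 0.13, and their sum was 13307 to 13790 against 4759 to 4925 on chow. The neutrophil list was also higher in 6 of 7 genes (median 1.97), led by S100a9 (2.55 ± 0.20) and S100a8 (2.44 ± 0.16), with a sum of 3004 to 3071 against 385 to 711 in the other livers. Some genes in these counts passed the filter in liver through FGF1 null HFD liver alone and so had to be high there. Named after their values were seen, they were Ms4a7, Mmp12 and Abcg1 of the programme, Cx3cr1 and Fcgr1 of the pan-macrophage list, and Ngp, Camp and Mpo of the neutrophil list. The adipocyte list summed to 2864 to 2966 in FGF1 null HFD liver and 593 to 1371 in the other livers, with 4 of its 8 genes, Adipoq, Plin1, Retn and Slc2a4, undetected in the former. Named after their values were seen, the other adipocyte genes past 2-fold higher than on chow were Cidec (1.43 ± 0.39), a lipid droplet protein, and Pparg (1.40 ± 0.10). Against wild-type HFD liver Cidec was higher by 5.07 ± 0.39. That value rests on a level near background, since wild-type HFD liver read 5.66 and detected Cidec on 1 of 2 arrays. Wild-type chow liver read 9.41. The part of either cell type in the members' differences was not tested.

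Of 4 measured markers of Kupffer cells, the macrophages that live in the liver sinusoids, 0 were past 2-fold in either direction (median 0.13). The list's sum over 5 probes was 6885 to 7672 in FGF1 null HFD liver and 8025 to 8229 in wild-type HFD liver. Chosen after its value was seen, Clec4f read 10.35 in FGF1 null HFD and 9.76 in FGF1 null chow liver. Timd4, a phagocytic receptor of resident macrophages, was undetected in FGF1 null HFD liver and at least 2.74-fold lower there than in wild-type HFD liver. Cd163, the haemoglobin scavenger receptor, was undetected in that sample too, at least 7.17-fold lower than on chow and at least 12.3-fold lower than in wild-type HFD liver. The other resident-type markers tested in liver, also named after their values were seen, were not past 2-fold in either comparison. On HFD against chow Folr2 differed by 0.81, Mrc1 by 0.24 and Lyve1 by -0.405. Against wild-type HFD liver Folr2 differed by -0.24, Mrc1 by -0.13 and Lyve1 by 0.79.

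On HFD, FGF1 null liver stood above wild-type liver for 4 of 5 members, where 4.45% of all tested were past 2-fold higher. The FGF1 null HFD sample is the one of the diet comparison. Gpnmb, 1 of the 4, passed the filter in liver through that sample alone and so had to be high there. Gpnmb was 24.1-fold higher (4.59 ± 0.35, detected on 1 of 2 wild-type arrays), Trem2 4.05-fold (2.02 ± 0.32), Cd63 3.57-fold (1.84 ± 0.10) and Lgals3 3.27-fold (1.71 ± 0.15). Cd9 differed by 0.16 ± 0.11. Of 22 programme genes 9 were higher, among them Mmp12 (at least 2.89-fold) and Ms4a7 (at least 4.41-fold), and 1 was lower, Fabp5 (at least 3.17-fold). Tyrobp was higher by 1.70 ± 0.26 and Lat2 by 1.05 ± 0.40. Of 12 pan-macrophage markers 5 were higher and 0 lower (median 0.90), and of 7 neutrophil genes 5 were higher (median 2.08), with S100a8 at 3.67 ± 0.16 and S100a9 at 3.23 ± 0.20. These list counts again include Mmp12, Ms4a7, Abcg1, Cx3cr1, Ngp, Camp and Mpo, which passed the filter in liver through FGF1 null HFD liver alone. The 8 hepatocyte genes differed by a median of -0.03, with 0 past 2-fold.

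On chow, 0 of 5 members were past 2-fold between the livers, where 4.05% were in either direction, and their differences ran from -0.24 (Cd9) to 0.21 (Gpnmb). The diet differences of the genotypes in liver were at least 2-fold apart for 4 of 5 members, beside 12.5% of all tested: Gpnmb by 4.38, Trem2 by 2.24, Cd63 by 1.79 and Lgals3 by 1.64. Of these, Gpnmb passed the filter in liver through FGF1 null HFD liver alone and so had to be high there. In mice labelled FGF1 null the diet differences had opposite signs in eWAT and liver for Trem2, Gpnmb, Lgals3, Cd63 and Cd9, and both were past 2-fold for the first 3. These differences were not tested, and the share of all tested with opposite signs was not counted. The eWAT values rest on the chow sample labelled FGF1 null, in which Fgf1 goes against its label.

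**Figure D3:**
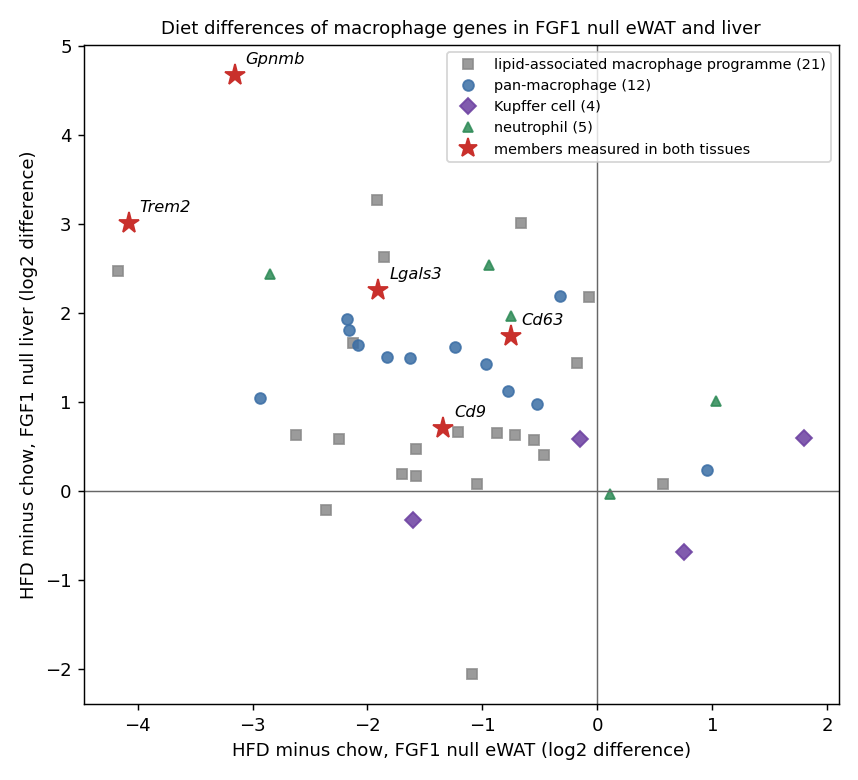
Log2 difference of HFD minus chow in FGF1 null eWAT (x axis) and FGF1 null liver (y axis) for the 5 members measured in both tissues (stars) and genes of 4 marker lists, each point 1 gene. Gpnmb (-3.15, 4.68) and Trem2 (-4.08, 3.02) lie at the upper left, with most pan-macrophage markers on the same side, and the 4 Kupffer cell markers lie nearer to 0 on the y axis.

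Tissue was the factor tested across samples, with 4 eWAT and 4 liver samples matched by genotype and diet; diet and genotype were not tested over both tissues together. With limma on the 8 RNA samples and condition as a block, 4 of 6 members were higher in eWAT at an adjusted p under 0.05 and at least 2-fold, where 16.3% of the 12206 tested were. Cd63 was 13.16 ± 0.43 (SD, n = 4) in eWAT and 8.99 ± 0.89 in liver, a difference of 4.17 ± 0.42 (limma, adjusted p = 0.0019). Lgals3 was 14.02 ± 1.09 and 9.63 ± 1.09 (4.39 ± 0.67, limma, adjusted p = 0.00627), Cd9 10.84 ± 0.66 and 9.06 ± 0.31 (1.78 ± 0.38, limma, adjusted p = 0.0181), and Gpnmb 12.07 ± 1.98 and 6.63 ± 2.36 (5.44 ± 1.26, limma, adjusted p = 0.0229). Each of the 4 was higher in eWAT under 4 of 4 conditions. The test rests on 3 residual degrees of freedom, and the Gpnmb call was lost without the wild-type HFD pair (4.90, limma adjusted p = 0.0712), the wild-type chow pair (5.74, 0.0542) or the chow pair labelled FGF1 null (4.26, 0.0719). With the mean of its detected probes in place of the brightest, Gpnmb differed by 2.55 and the call was also lost (limma adjusted p = 0.063).

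Trem2 did not pass, at 9.13 ± 2.41 in eWAT and 6.62 ± 1.38 in liver (2.52 ± 1.17, limma adjusted p = 0.144, higher in eWAT under 3 of 4 conditions). Itgax read 5.0 ± 0.75 and 4.78 ± 0.22 (0.21 ± 0.27, limma adjusted p = 0.557, 2 of 4), and its sign changed with median scaling (-0.15). By condition, Trem2 was 96.4-fold higher in eWAT in the chow pair labelled FGF1 null, 9.42-fold in wild-type HFD, 1.68-fold in wild-type chow, and differed by -0.50 ± 0.32 (log2) in FGF1 null HFD. Each chow liver detected Trem2 on 1 of 2 arrays, so the 96.4-fold and 1.68-fold values rest on a level near background. The tissue difference of Trem2 thus ran from -0.50 to 6.59 across conditions, and that of Cd63 from 2.71 to 5.20.

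Taken condition by condition, 4 of 6 members were past 2-fold higher in eWAT in wild-type chow (24.7% of all tested), 5 in wild-type HFD (18.6%), 6 in the chow pair labelled FGF1 null (23.6%) and 4 in FGF1 null HFD (18.0%). For Itgax, 1 of the 6, the detection filter fixed this. Gpnmb, undetected in wild-type chow liver, was at least 14.8-fold higher in eWAT there, and 2.23-fold in FGF1 null HFD, where the tissues came nearest (a log2 difference of 1.16, or 0.53 with the mean of its detected probes). The brightest probe gave Cd63 6.54-fold in FGF1 null HFD and 36.8-fold in the chow pair labelled FGF1 null. Itgax was at least 1.14-fold higher in eWAT in the latter pair.

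The macrophage lists were tested in the same fit. Of 12 pan-macrophage markers 2 were higher in eWAT, Cd14 (1.70 ± 0.34, limma adjusted p = 0.0139) and Laptm5 (2.36 ± 0.48, limma adjusted p = 0.0148), with a median of 1.45 over the list. Of 24 programme genes 6 were higher in eWAT, led by the lipoprotein lipase Lpl, which adipocytes also make (5.92 ± 0.40, limma adjusted p = 0.000836), and 2 in liver, Apoe and Ctsl. Of 5 Kupffer cell markers 3 were higher in liver, led by Clec4f (-4.76 ± 0.43 as eWAT minus liver, limma adjusted p = 0.00148). Of 8 adipocyte genes 7 were higher in eWAT, and of 8 hepatocyte genes 7 in liver. The eWAT samples also held RNA of other organs. Of 8 genes of epididymis, testis and sperm 5 were higher in eWAT, and 0 of 9 acinar pancreas genes. The hepatocyte gene Ttr read 14.77 in wild-type HFD eWAT, beside 15.63 in wild-type HFD liver. What part these organs had in the members' tissue differences was not tested. Probes for Fabp4 and Cd36 in the programme list, named after their values were seen, were near background throughout, Fabp4 reading from 4.47 to 5.17.

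**Figure D4:**
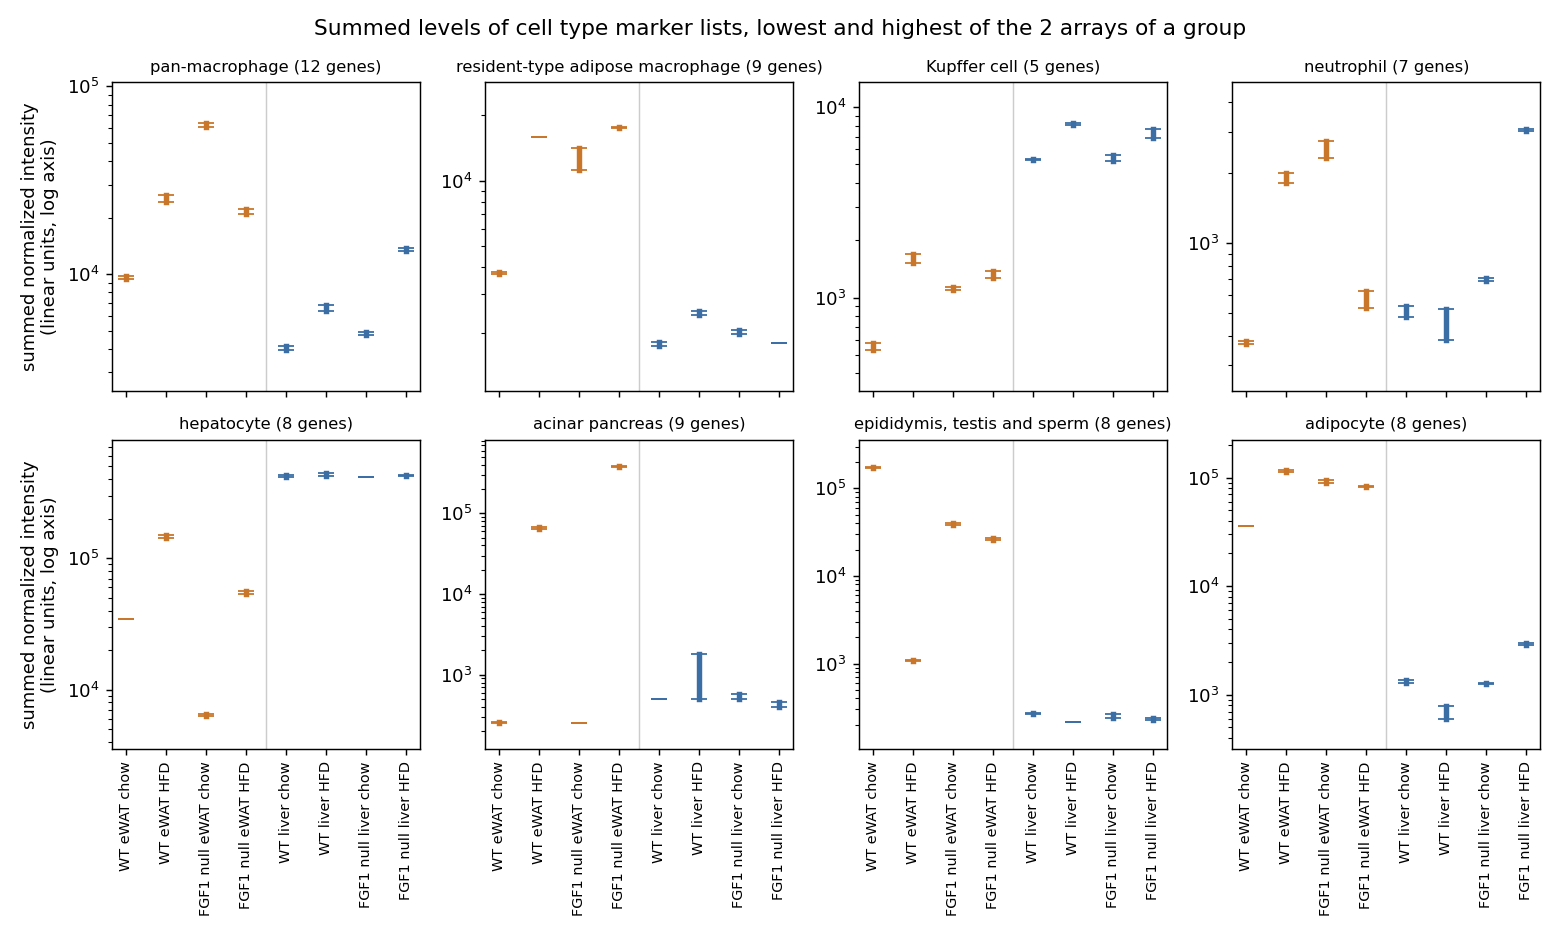
Summed normalized intensity (linear units, log axis) of 8 marker lists in each sample, drawn from the lower to the higher of its 2 arrays; orange is eWAT, blue liver. Pan-macrophage genes are highest in the eWAT chow sample labelled FGF1 null (60762 to 63976), and the epididymis, hepatocyte and acinar pancreas sums differ widely among the eWAT samples. The hepatocyte sum is mostly Cyp2e1 in wild-type chow eWAT (15.03, log2) and in FGF1 null HFD eWAT (15.7).

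Across the 8 samples the members' levels went together in part, which is a description over 8 points that share tissue as a large part of their spread. Pearson's r was 0.974 between Gpnmb and Lgals3, 0.97 between Cd63 and Lgals3 and 0.911 between Trem2 and Gpnmb, and Itgax correlated least with the others, from 0.337 to 0.667. Among 11236 named genes, those most like Trem2 were Fcer1g (r = 0.989), Tyrobp (0.987) and Mmp12 (0.986). Those most like Gpnmb were Arl11 (0.996), Arhgap22 (0.992) and Csf2ra (0.991), a receptor subunit for the growth factor GM-CSF. Lgals3 was most like Iqgap1 (0.997), Ino80c (0.994) and Pqlc3 (0.993), Cd63 like Mvb12b (0.996), Nxpe4 (0.995) and Fut8 (0.994), and Cd9 like Arhgap18 (0.993), Mical1 (0.992) and Wdr1 (0.988). Itgax, measured above background in 1 sample, was most like Zranb3 (0.96), Cd48 (0.958) and Htr2b (0.956).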

How the data were processed

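Total RNA of eWAT and liver was hybridized to 1-colour Illumina MouseRef-8 bead arrays and read out in GenomeStudio, per the submitters' processing notes, which give no version. The authors' deposited non-normalized table gives linear intensity and a detection p-value for each probe and array; the authors' second table holds normalized intensity, whose method is not given in the sources used here. Groups came from the labels.

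In R 4.3.3 with limma 3.58.1, neqc corrected the background from the detection p-values, then added 16, and normalized by quantiles over the 16 arrays together on the log2 scale. Dim differences are widened by this, and bright ones are compressed near the scanner's limit. A probe entered a comparison if both arrays of some group of the tissue detected it (p under 0.05), or of either tissue for eWAT against liver, and the probe brightest over all arrays stood for its gene. Within a tissue, log2 differences carry limma's array-level SE (8 residual degrees of freedom). For eWAT against liver, limma fitted the 8 RNA samples (arrays averaged) with condition as a block, with Benjamini-Hochberg adjustment over 12206 genes and probes. A fold against a sample without detection is given as at least the higher sample's mean over the lowest detected signal of the lower sample's arrays. The number of arrays limits the precision.

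Members and lists were chosen with earlier results of these data known. Named genes are the members, up to 3 members of each list with the largest difference past 2-fold in a comparison, the 3 genes most like each member, and Fgf1; others are said to be chosen after their values were seen. Probe names came from the platform annotation (1 symbol for 23978 probes, none for 1719), and 23962 matched RefSeq by Entrez identifier. The fits were tested on simulated data.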

Additional observations from a re-analysis of the deposited data

Results flagged for a closer look

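In eWAT, 3 members were past 2-fold higher on HFD in wild-type mice and past 2-fold lower on HFD in mice labelled FGF1 null. The diet difference of FGF1 null minus that of wild-type was -7.35 on the log2 scale for Trem2, -5.98 for Gpnmb and -3.60 for Lgals3. In FGF1 null mice the same 3 genes were lower on HFD in eWAT and higher on HFD in liver, and the diet difference in eWAT minus that in liver was -7.83 for Gpnmb, -7.10 for Trem2 and -4.17 for Lgals3. The share of all tested with such opposite differences in the tissues was not counted. All 6 differences were not tested, since each group is 1 RNA sample. All 6 rest on the eWAT chow sample labelled FGF1 null, in which Fgf1 was above its wild-type level.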

How the results depend on the processing

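Of 226 counts over the members recomputed under other settings, 220 stayed within 1.5 times their main value and 6 moved. With detection required on all arrays compared, 2 members in place of 4 were past 2-fold higher with HFD in FGF1 null liver, 3 in place of 6 were higher in eWAT in the chow pair labelled FGF1 null, and 2 in place of 4 had liver diet differences at least 2-fold apart; the filter leaves out members that 1 sample did not detect. In wild-type liver with HFD, where the main count was 0, a 1.5-fold minimum gave 2 and median scaling 1 (Lgals3, 1.01), and leaving out each array in turn gave 0 to 1 (Trem2 at 1.28 without array 1 of wild-type chow liver). Median scaling put the median of all genes at 0.27 there, in place of 0.01, so that Lgals3 call is relative to a shifted centre. The eWAT against liver test of Gpnmb had limma adjusted p from 0.0101 to 0.0719 over its alternatives, and lost its call with the mean of detected probes (2.55). Of single members' values 1046 kept their side of the threshold, 14 lost it and 11 gained it, and 2 of the tested tissue comparison changed sign without a call: Itgax as eWAT minus liver, 0.21, was -0.15 with median scaling and ran from -0.069 (without the chow pair labelled FGF1 null) to 0.368 with 1 pair left out. With the authors' normalized values and without background correction the Itgax differences were short of 2-fold (0.76 and 0.58 for genotype on chow), and with the former Cd9 in FGF1 null HFD was 0.94 higher in eWAT. Trem2 in wild-type chow was past 2-fold higher in eWAT with median scaling (1.26) and without array 1 of wild-type chow liver (1.25). The array numbers do not pair samples: deviations of same-numbered arrays correlated at -0.054 to 0.059 over 28 pairs of groups. With array number as a replicate block, limma on arrays gave 3 members in wild-type eWAT with HFD, 5 in FGF1 null eWAT and 4 in FGF1 null liver, and no count changed. Signal near background limits Trem2 in 2 livers, Gpnmb in 3 livers and Itgax in 7 of 8 samples.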
